A study of Mus musculus with 11 samples.

Results

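CpG-dense stretches of the mouse genome that were neither free of methylation nor fully methylated were described by reduced representation bisulfite sequencing (RRBS) of ER-Hoxa9-Lys-GFP cells. They were taken as 500-bp tiles of chromosomes 1 to 19 (mm9) with 25 or more listed CpG positions, 30 or more CpG-read observations in every library, and a methylation level, pooled over all 11 libraries, from 20% to under 70%. A CpG-read observation is 1 read covering 1 CpG, and a level is the share of such observations that were methylated. Of 358133 tiles with a listed CpG, 7583 were CpG-dense and covered, and 387 of these were partly methylated, against 5126 under 20% and 2070 at 70% or more. A stretch of chromosome 17 was left out, where 5 tiles met the other conditions. The pooled level chose the tiles, so that level is given as a description only.

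The cells are cultured C57BL/6 mouse cells that carry ER-Hoxa9, in which the transcription factor Hoxa9 is joined to estrogen receptor sequence and so depends on hormone, and a Lys-GFP reporter. Such lines are known as myeloid progenitors that are held immature while estradiol keeps the fusion active and that mature when it is removed; the data used here hold no expression of markers to check this. Estradiol was withdrawn for 24, 40, 56 or 72 h and then given back for 96, 80, 64 or 48 h, or withdrawn for 120 h with no return, each with 2 libraries, and 1 library stands for uninterrupted estradiol. A longer absence therefore always went with a shorter return, and their effects cannot be told apart. All groups share the fusion and the reporter, and the labels name no second cell line and do not say that replicates were separate cultures, so a p-value here reflects only how far these libraries spread, which may be technical. Depth ran from 8234933 to 46899896 observations per library.

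In mammals most CpGs are methylated, while CpG islands, dense clusters that often hold gene starts, are usually free of methylation. A dense stretch at a middle level can hold molecules that are methylated and others that are not (as at imprinted genes, where the parental copies differ), a border between a methylated and an unmethylated stretch, or CpGs that differ from molecule to molecule. Methylation is copied at DNA replication by DNMT1, set anew by DNMT3A and DNMT3B, and oxidised by the TET enzymes.

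The promoters of 4 genes are printed as examples of an even middle level (Ckap4, Plekha5 and Tet3) and of a step (Jmjd1c). The commonest form, a mixture of low, middle and high CpGs, is not among them. RefSeq promoter sequences (GRCm38.p6) were placed on the listed CpGs by their pattern of CpG spacings, and the stretch of 250 bases before the start site is printed 5′ to 3′ on the strand of the gene. Capitals mark each listed CpG with a pooled level of 20% or more, and a CpG in lower case was either under 20% or not listed. The mm9 spans are chr10:83996634-83996883 (minus strand) for Ckap4, chr6:140372370-140372619 (plus strand) for Plekha5, chr6:83391673-83391922 (minus strand) for Tet3 and chr10:66589586-66589835 (plus strand) for Jmjd1c.
Ckap4: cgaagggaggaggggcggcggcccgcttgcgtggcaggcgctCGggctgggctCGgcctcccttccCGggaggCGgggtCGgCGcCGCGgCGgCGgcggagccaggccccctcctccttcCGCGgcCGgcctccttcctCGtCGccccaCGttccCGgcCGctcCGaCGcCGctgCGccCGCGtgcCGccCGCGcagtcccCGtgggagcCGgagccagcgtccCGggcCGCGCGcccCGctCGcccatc
Plekha5: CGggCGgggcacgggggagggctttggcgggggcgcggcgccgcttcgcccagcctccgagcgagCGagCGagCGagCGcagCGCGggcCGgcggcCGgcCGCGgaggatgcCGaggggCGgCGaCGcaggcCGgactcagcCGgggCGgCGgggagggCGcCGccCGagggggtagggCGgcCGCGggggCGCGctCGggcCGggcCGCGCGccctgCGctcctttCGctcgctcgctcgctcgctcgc
Tet3: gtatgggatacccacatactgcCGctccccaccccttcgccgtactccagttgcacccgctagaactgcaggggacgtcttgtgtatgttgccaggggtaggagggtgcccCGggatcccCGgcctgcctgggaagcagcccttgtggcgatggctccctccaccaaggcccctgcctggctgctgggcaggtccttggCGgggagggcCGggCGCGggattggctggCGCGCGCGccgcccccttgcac
Jmjd1c: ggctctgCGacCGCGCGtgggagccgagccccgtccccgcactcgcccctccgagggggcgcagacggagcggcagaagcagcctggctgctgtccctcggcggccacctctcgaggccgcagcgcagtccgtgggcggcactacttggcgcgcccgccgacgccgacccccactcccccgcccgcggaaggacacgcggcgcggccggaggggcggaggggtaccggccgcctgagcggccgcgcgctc

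In Ckap4, which encodes a membrane protein of the endoplasmic reticulum, all 35 listed CpGs of this stretch lay between 23.0% and 47.2% (median 38.4%). In Plekha5, which encodes a pleckstrin homology domain protein, the 35 listed CpGs lay between 20.6% and 61.8% (median 36.9%). In Tet3, which encodes an enzyme that oxidises methylated cytosine, the 11 listed CpGs lay between 31.2% and 56.5% (median 36.4%). No minimum of reads was set for CpGs in promoter windows, and 8 of the Plekha5 CpGs had only 12 to 25 pooled reads. Jmjd1c, which encodes a JmjC-domain protein of a histone demethylase family, had another form. Only 18 of the 40 CpGs in its stretch were listed. The 4 listed CpGs farthest from the start were at 95.7 to 100%, and the other 14 listed were at 0 to 5.4%. None was listed between -235 and -71 bp from the start, so the place of the step within that gap is unknown.

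**Figure D1:**
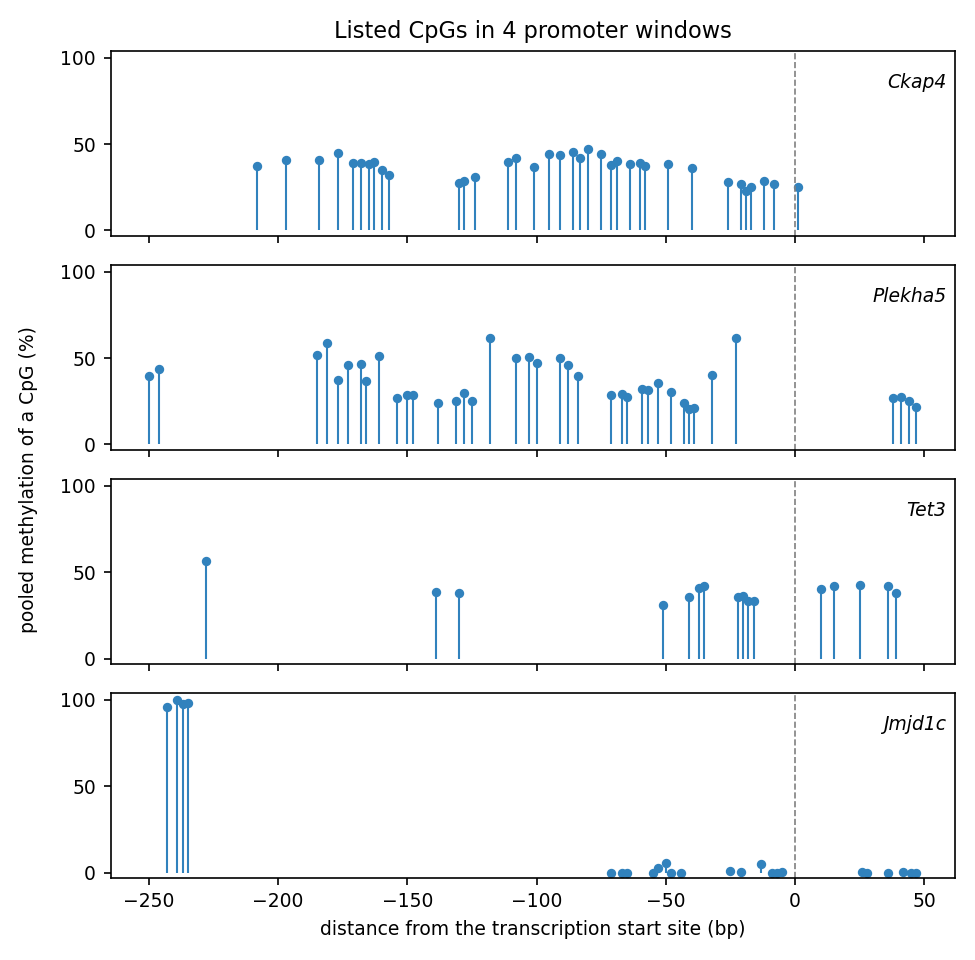
Pooled methylation of each listed CpG (y, percent) by distance from the start site (x, bp) in 4 promoter windows, with 1 point per CpG and a dashed line at the start. Points of Ckap4, Plekha5 and Tet3 stay at middle levels along the window, while those of Jmjd1c are near 100% far upstream and near 0 close to the start.

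The 387 tiles lay on all 19 autosomes, from 3 on chromosome 16 (of 227 CpG-dense tiles there) to 40 on chromosome 2 (of 597). They held a median of 32 CpGs (25 to 67) and their median pooled level was 39.3%. By pooled level, 88 tiles lay at 20 to under 30%, 109 at 30 to under 40%, 65 at 40 to under 50%, 57 at 50 to under 60% and 68 at 60 to under 70%. The median depth was 10.7 reads per CpG and library. The tiles held a median of 4053 observations over all libraries, from 1173 to 92447 at chr17:36368001-36368500. At the lower bound the nearest tiles inside were chr5:125342001-125342500 (20.0042%), chr12:93017001-93017500 (20.0294%) and chr4:48553001-48553500 (20.1297%), and those outside were chr19:42222001-42222500 (19.9024%), chr4:140204501-140205000 (19.9012%) and chr2:119096501-119097000 (19.8418%). At the upper bound the nearest inside were chr10:7310001-7310500 (69.9817%), chr2:152857501-152858000 (69.9242%) and chr11:101888001-101888500 (69.2727%), and those outside were chr17:24346001-24346500 (70.2174%), chr7:103359001-103359500 (70.4587%) and chr15:75578001-75578500 (70.7034%). At the bound on density, 22 members had 25 CpGs and 34 tiles just outside had 24.

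Most CpGs of the tiles were themselves at a middle level. Of 12391 CpGs with 30 or more pooled reads, 61.9% were at 20 to 80%, 23.8% were under 20% and 14.3% were over 80%. The commonest levels were 30 to 40%, with 2110 CpGs. In CpG-dense tiles under 20% the share at 20 to 80% was 1.18%, and in those at 70% or more it was 6.03%. These classes were chosen by the pooled level of the tile, so their low shares largely follow from that choice. In partly methylated tiles of 10 to 24 CpGs the share at 20 to 80% was 61.0%, close to the dense ones. A tile was called uniform where at least 80% of its CpGs lay at 20 to 80%, split where under 20% did, and mixed otherwise. By these bounds 118 tiles were uniform (30.5%), 235 mixed (60.7%) and 34 split (8.79%).

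**Figure D2:**
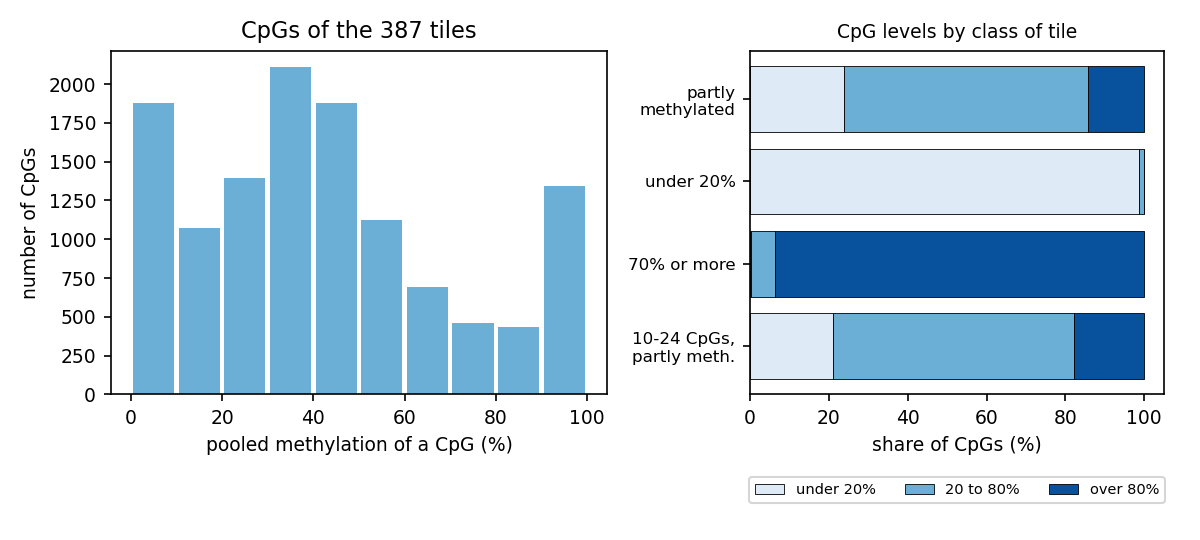
Left, number of CpGs (y) by pooled methylation in bins of 10 points (x, percent) in the 387 tiles. Right, share of CpGs (x, percent) under 20%, at 20 to 80% and over 80% in 4 classes of tile. The commonest bin holds 2110 CpGs at 30 to 40%, and the middle class takes 61.9% of CpGs in the partly methylated dense tiles.

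The uniform tiles with the most CpGs included the promoters of several named genes. At chr2:65076501-65077000, which holds the start of Cobll1, an actin-binding cordon-bleu-like gene, all 53 measured CpGs were at 20 to 80% and the 11 libraries ran from 21.7% to 52.5% (median 39.9%). At chr10:83996501-83997000 (Ckap4) 51 of 54 CpGs were at 20 to 80%, and the libraries ran from 32.2% to 47.4%. At chr17:83614501-83615000, which holds promoter CpGs of Pkdcc, a secreted protein kinase gene, and of Gm34686, 49 of 53 CpGs were, and the libraries ran from 17.8% to 42.5%. The tile chr4:148960501-148961000 holds the start of Clstn1, the gene of calsyntenin, a membrane protein of neurons, with 49 of 54 CpGs at a middle level. The tile chr5:44173001-44173500, with no placed promoter, had all 42 of its measured CpGs there, and libraries from 33.8% to 62.8%.

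In most split tiles the levels changed abruptly along the tile. Each tile was divided at the point that best separated its CpGs into a left and a right part, and the means of the parts differed by 50 points or more in 91 tiles, among them 29 of the 34 split, 61 of the 235 mixed and 1 of the 118 uniform tiles. The part and the point were chosen on these levels, so the counts are descriptions. At chr10:66589501-66590000 (Jmjd1c) the left part averaged 93.2% and the right part 0.579%. At chr9:106788501-106789000 the parts averaged 87.9% and 5.57%, and at chr15:99055001-99055500 they averaged 9.73% and 88.6%. At chr9:103267501-103268000 (with upstream promoter CpGs of Cdv3, a gene named for carnitine deficiency) they averaged 54.3% and 8.34%. The tile chr2:52717001-52717500 had 36 of 38 CpGs over 80% and its other 2 under 20%.

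How far the order of levels along a tile was repeated between libraries was described in the 5 deepest libraries. The median correlation of CpG levels between 2 libraries was 0.98 in split tiles (34 tiles), 0.88 in mixed tiles (232) and 0.49 in uniform tiles (116). These are descriptions across CpGs of 1 tile that share reads, and a uniform tile has a smaller range of levels.

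Surroundings were described by covered tiles within 2500 bp. Both adjacent tiles were covered for 81 members, of which 19 had both at 20 to under 70% and 14 lay between a tile under 20% and a tile at 70% or more. For 24, 1 adjacent tile was at 20 to under 70% and the other at 70% or more, for 11 it was at 20 to under 70% beside one under 20%, 6 had both under 20% and 7 both at 70% or more. On the side of higher coordinates, 38 of 59 covered tiles next to uniform members were at 20 to under 70%, against 3 of 19 next to split members. Members formed 354 separate runs, with 29 of 2 tiles and 2 of 3. The tiles of the run at chr14:35315001-35316500, whose middle tile holds the start of Bmpr1a, a receptor of bone morphogenetic proteins, were at 29.9, 28.3 and 30.7%. Those of the run on chromosome 18 from 81183001 were at 32.2, 25.7 and 34.9%.

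Promoters were looked up by the same placement, which finds only promoters with enough listed CpGs. A promoter was placed in 111 of the 387 tiles (28.7%), against 2138 of 5126 (41.7%) under 20% and 24.2% of the 2070 at 70% or more. The 120 promoters belong to 116 genes. Tiles with a promoter were uniform in 26 cases, mixed in 75 and split in 10. The median GC content of the 300 bases around these starts was 73.7%, against 71.3% for promoters in tiles under 20% and 73.3% in those at 70% or more. Of the 120 windows, 91 were themselves at 20 to under 70%, 24 under 20% and 5 at 70% or more.

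In 18 promoters every matched CpG was at 20 to 80%. The pooled levels of their windows ran from 32.9% to 47.7%. Besides Ckap4 (36 matched CpGs, 37.6%), Plekha5 (39, 39.9%) and Tet3 (16, 39.6%) they included Me1, the cytosolic malic enzyme (21 matched CpGs, 39.3%). They also included Adcy3, an adenylate cyclase (18 matched CpGs, 41.6%), Fhdc1, a formin-domain gene (21, 42.3%), Sgms2, a sphingomyelin synthase (17, 35.4%), and Kcng3, a potassium channel subunit (39, 46.7%). In 5 promoters every matched CpG was under 20%, among them Bmp2k, a kinase gene, at 0.132% over 43 CpGs in a window that lies largely beyond the tile it was assigned to. The genes named here and in the next paragraph were chosen after their values were seen.

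Some genes of signalling, cell surface and transcription factors lay in mixed or split tiles. The window of Vegfc, a growth factor of lymphatic vessels, was at 36.1% (29 matched CpGs), with CpGs from 9.68 to 54.2%. The window of Bdnf, a neurotrophin, was at 69.98% (11 matched CpGs), with CpGs from 25.5 to 100%. For Cd276, a surface protein of the B7 family, it was at 53.6% (28), and for Serpine2, an inhibitor of serine proteases, at 50.7% (24). Snai1, a zinc-finger transcription factor, had a window at 3.99% (23 matched CpGs) in a tile of 21.0%, and Wnt2b, a secreted Wnt ligand, had one at 9.83% (28) in a split tile of 24.1%. A window covers only part of a tile and may reach beyond it.

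Around the placed starts, the median level was lowest just upstream. For 108 starts (the promoter with the most listed CpGs in each tile) the median level was 34.1% in the 250 bases before the start (107 with data) and 37.8% in the 250 after it (105). It was 62.7% in the next 250 bases downstream (79) and 78.9% in the 250 after those (41), and 49.4% from 251 to 500 bp upstream (64). Around starts in dense tiles under 20% the same stretches had medians of 0.261, 0.29, 0.381, 0.48 and 0.341%. Both sets of starts were chosen by the pooled level of their tiles, so the gap between them near the start follows from that choice. Steps of 50 points or more in promoter tiles were higher downstream in 14 tiles and higher upstream in 13.

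**Figure D3:**
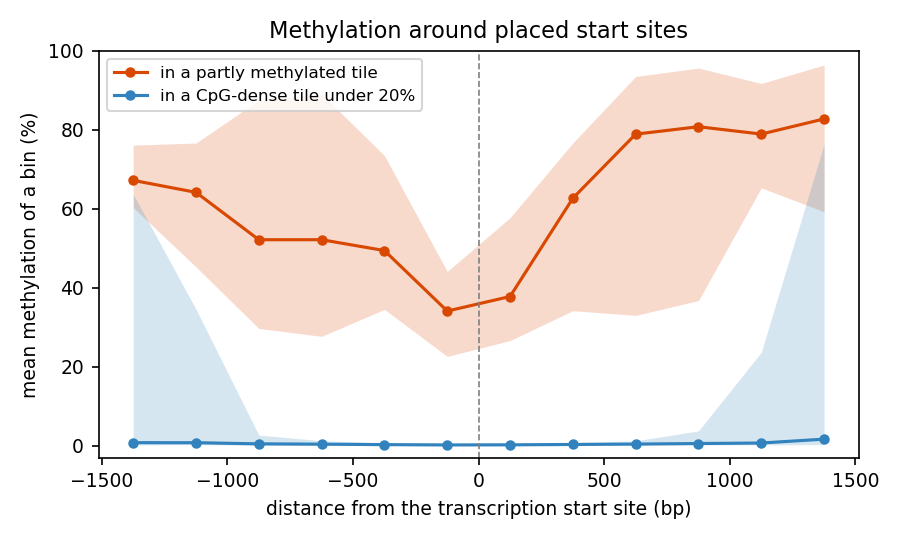
Mean methylation of 250-bp bins (y, percent) by distance from the start site (x, bp). Points are medians over promoters and bands run between the quartiles. The line for partly methylated tiles is at 34.1% just before the start and at 78.9% from 500 to 749 bp after it, while that for unmethylated tiles stays under 2%. The sets were chosen by the levels of their tiles.

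Germline imprinted genes, Hox genes and myeloid genes were looked up in the placed promoters. Of 26 imprinted genes 20 were among the RefSeq promoters and 3 were placed (Gnas at 0.115%, Grb10 at 96.5% and Igf2r at 95.9%). The 22 Hox genes taken were those among the RefSeq promoters, and 6 were placed (91.9 to 98.4%). Of 20 myeloid genes 18 were among them and none was placed. The levels are those of promoter windows, and the control regions of imprinted genes were not looked up. None of the placed promoters lay in a partly methylated dense tile.

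The average level of the tiles was nearly the same in every group. Over the 387 tiles it was 43.7% in continuous estradiol, 42.5% ± 0.39 after 24 h and return, 43.0% ± 0.0086 after 40 h, 42.7% ± 0.10 after 56 h, 42.1% ± 0.65 after 72 h and 42.2% ± 0.041 after 120 h without estradiol (SD over libraries, n = 2 except the first). The 120 h mean was thus 1.54 points below continuous estradiol and 0.30 below 24 h. Over all 50105 tiles tested the corresponding differences were -0.319 and -0.132 points. In partly methylated tiles of 10 to 24 CpGs they were -1.19 and -0.299 points, close to those of the members. Against continuous estradiol 233 of 387 tiles were lower at 120 h (median difference -1.23 points), and against 24 h 199 were (median -0.19), beside 25000 and 25377 of all tiles. As shares these were 60.2% and 51.4% of members, and 49.9% and 50.6% of all tiles. They were 55.8% and 54.3% of partly methylated tiles of 10 to 24 CpGs. In dense tiles they were 58.6% and 56.5% at 70% or more, and 38.3% and 43.5% under 20%.

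**Figure D4:**
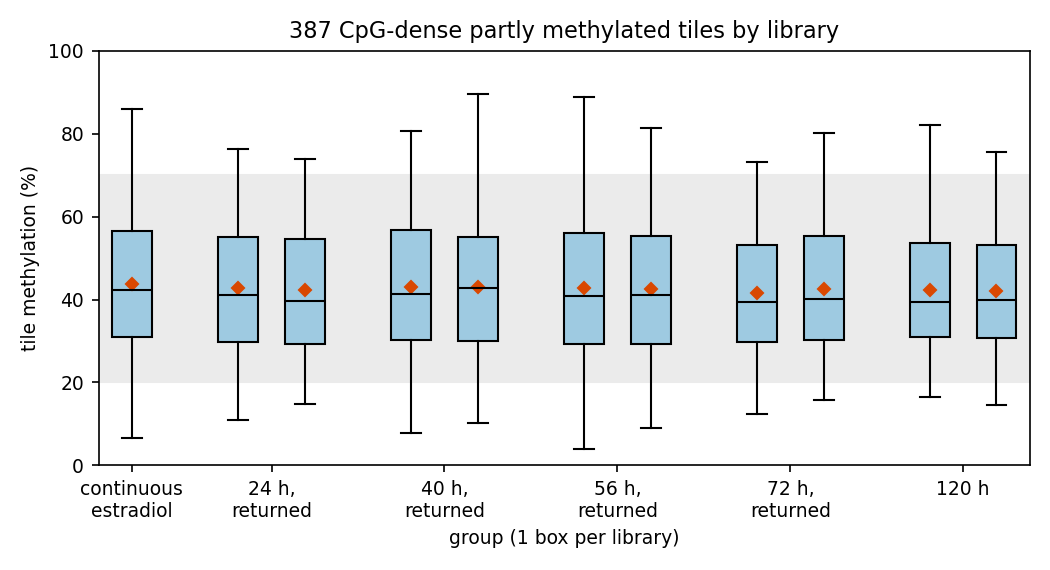
Methylation of the 387 tiles (y, percent) in each of the 11 libraries (x, by group). Boxes run between the quartiles with a line at the median, whiskers reach the lowest and highest tile, diamonds are means and the grey band is 20 to 70%. The means lie between 41.7% and 43.7% in all libraries.

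The tiles of Ckap4, Tet3 and Plekha5 kept a middle level in every library, and no printed tile followed a steady order by hours without estradiol. The level of the Jmjd1c tile is an average over its step, with 0 of 44 measured CpGs at 20 to 80%. Ckap4 had 40.2% in continuous estradiol, 32.2% and 41.3% after 24 h, 46.9% and 47.4% after 40 h, 36.7% and 40.5% after 56 h, 36.3% and 34.6% after 72 h, and 37.1% and 39.5% after 120 h. Tet3 had 39.6% in continuous estradiol, 41.8% and 46.9% after 24 h, 31.0% and 45.8% after 40 h, 44.6% and 42.4% after 56 h, 35.7% and 36.0% after 72 h, and 42.3% and 35.0% after 120 h. Plekha5 had 39.3% in continuous estradiol, 54.8% and 48.4% after 24 h, 53.4% and 35.2% after 40 h, 40.7% and 41.2% after 56 h, 49.2% and 56.2% after 72 h, and 44.4% and 58.7% after 120 h. The 40 h replicates of Ckap4 were its 2 highest libraries, while those of Plekha5 differed widely and included its lowest. Jmjd1c, the split tile, had 17.1% in continuous estradiol, 14.3% and 21.5% after 24 h, 27.2% and 20.7% after 40 h, 22.6% and 20.7% after 56 h, 18.0% and 18.8% after 72 h, and 25.5% and 20% after 120 h.

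A tile's libraries spanned a median of 18.0 points (5.72 to 50.2) and its group means a median of 11.5 points. In all 11 libraries 246 tiles (63.6%) were at 20 to under 70%, in 56 a single library was outside, and in 85 at least 2 were. The gap between replicates was taken as a chi-square of their counts per degree of freedom. It is 1 where observations are independent and only counting error acts. CpGs of 1 read are counted separately, so it may exceed 1 without any other spread. Members held a median of 32 CpGs, against 11 in all tiles tested. The chi-square averaged 4.12, against 1.42 over all tiles tested, 1.34 in dense tiles under 20% and 1.82 in dense tiles at 70% or more. In partly methylated tiles of 10 to 24 CpGs it averaged 3.41. The median was 4.08 in uniform, 2.78 in mixed and 3.27 in split tiles. The median gap between the replicates was 3.75 points at 120 h, with medians of 767 and 490 observations per tile, and 6.48 points at 56 h, with 161 and 154.

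Levels after 120 h without estradiol were compared with those after 24 h and return, the longest absence against the shortest. No tile of the 387 passed the threshold by the quasi-binomial test with Benjamini-Hochberg adjustment over all tiles, against 0.02% of the 50105 tiles tested (10 tiles). The smallest adjusted p of a member was 0.204. An unadjusted p under 0.05 was found for 72 members, which is 18.6%, against 6.93% of all tiles. Of these members 36 were higher and 36 lower at 120 h, against 3.47% and 3.46% of all tiles. By the chi-square given above, replicates of members differed more than those of all tiles, part of which may come from CpGs that share reads. On simulated counts whose spread grew with depth the unadjusted p was too small. This share is therefore no count of changed tiles. With the spread judged only against tiles at 20 to under 70% it was 11.1% of members and 5.75% of those tiles, with 0 members past the threshold. By limma on logit levels 0 members passed as well, and 2 had an unadjusted p under 0.05, which is 0.517% of members, against 3.90% of all tiles. Which of these shares was the higher thus depended on the test. Of the 387, 14 differed by 10 points or more (3.62%, against 0.665% of all tiles). Within 10 points lay 96.4% of members and 93.4% of partly methylated tiles of 10 to 24 CpGs. Differences of this size were no more common in members than in these less dense tiles. The less dense tiles were also shallower, with a median of 2422 observations over all libraries against 4053, so the shares are not matched in depth.

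**Figure D5:**
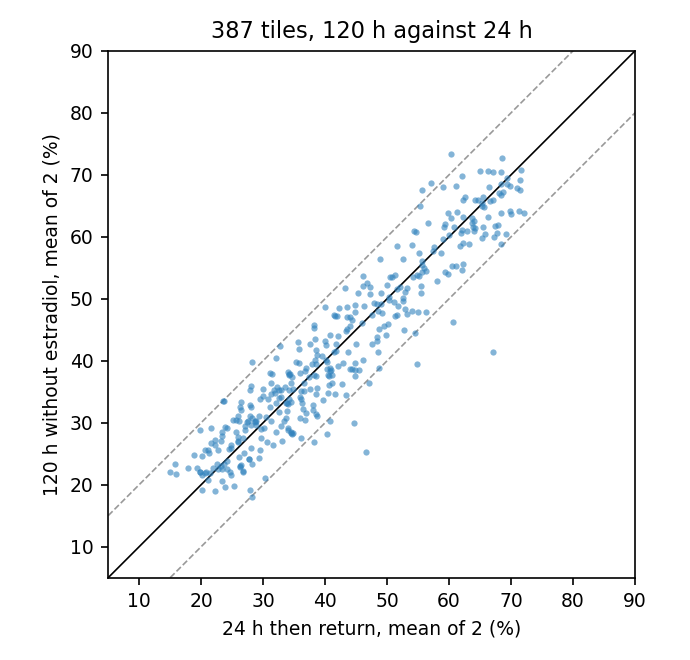
Mean methylation of the 387 tiles at 120 h without estradiol (y, percent) against that at 24 h and return (x, percent), n = 2 libraries each. The solid line marks equal levels and the dashed lines a difference of 10 points, which 14 tiles reached.

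Members with the smallest unadjusted p, 3 lower and 2 higher, are named as not passing. At chr5:34339001-34339500, a uniform tile of 26 CpGs, methylation was 43.1% and 39.7% in the 120 h libraries, against 66.4% and 67.9% in the 24 h libraries (difference -25.7 points, adjusted p = 0.204 by the quasi-binomial test). Its 56 h replicates were at 18.8% and 46.0%, so the replicates of another group were farther apart than these groups. At chr2:103406501-103407000 it was 43.3% and 35.7% at 120 h, against 58.8% and 50.7% at 24 h (-15.3 points, adjusted p = 0.438). At chr8:75877001-75877500 it was 31.6% and 28.3% at 120 h, against 47.2% and 42.0% at 24 h (-14.7 points, adjusted p = 0.531), and its 56 h replicates were at 23.9% and 47.5%.

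Among the higher ones, the tile chr7:135561501-135562000 holds the start of Rgs10, a regulator of G-protein signalling, and was at 36.0% and 31.1% at 120 h, against 20.8% and 26.3% at 24 h (9.98 points, adjusted p = 0.662). At chr6:124807001-124807500 it was 71.0% and 75.6% at 120 h, against 57.6% and 63.0% at 24 h (13.0 points, adjusted p = 0.662). Both higher tiles were mixed, so their levels are averages over unlike parts. The left and right parts averaged 0.748% and 61.9% in the Rgs10 tile, and 27.9% and 75.2% in the other. Whether reads fell on the parts alike in each library was not tested. In each of these 5 tiles the libraries of the pair of groups did not overlap, as held for 146 members (37.7%) and for 32.6% of all tiles.

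Cells returned after 72 h were compared with those returned after 24 h. No member passed, against 0.00798% of tiles (4 tiles), and the smallest adjusted p was 0.166. An unadjusted p under 0.05 was found for 65 members, or 16.8%, against 6.95% of tiles. Of these 26 were higher and 39 lower at 72 h, against 3.24% and 3.71% of tiles. The libraries did not overlap in 141 members, against 32% of tiles, and 23 members differed by 10 points or more, against 0.884% of tiles. The share within 10 points was 94.1% of members and 92.8% of partly methylated tiles of 10 to 24 CpGs. By limma on logit levels 0 members passed and 2 had an unadjusted p under 0.05, which is 0.517% of members, against 4.34% of tiles. This comparison and the one above share the 24 h libraries.

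Each group was also compared with the library kept in estradiol, whose own spread is unknown and was taken from the other groups. After 120 h no member and no tile passed (0% of tiles). An unadjusted p under 0.05 was found for 65 members, against 5.18% of tiles, with 24 members higher at 120 h, against 1.82% of tiles, and 41 lower, against 3.36%. Both 120 h libraries lay on 1 side of the estradiol library in 300 members, against 72.9% of tiles, and 78 members differed by 10 points or more, against 3.1% of tiles. The share within 10 points was 79.8% of members and 78.6% of partly methylated tiles of 10 to 24 CpGs. The smallest adjusted p was 0.196 at chr4:122960001-122960500, which holds the start of Pabpc4, a poly(A)-binding protein gene. After 24, 40, 56 and 72 h and return 0 members and 0% of tiles passed each time, with 68, 65, 68 and 66 members at an unadjusted p under 0.05, against 4.97, 4.9, 4.88 and 5.42% of tiles. The smallest adjusted p among these 4 was 0.434. By limma on logit levels 0 members passed in any of the 5, and after 120 h 5 members had an unadjusted p under 0.05, which is 1.29%, against 8.07% of tiles. After 24, 40, 56 and 72 h and return it was 6, 11, 10 and 4 members, against 7.19, 6.94, 7.12 and 7.59% of tiles. All 5 comparisons share that library.

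Over the 8 returned libraries a slope with hours without estradiol passed in no member, against 0.00399% of tiles (2 tiles), and 49 members had an unadjusted p under 0.05, or 12.7%, against 5.75%. By limma on logit levels 0 members passed for the slope and 1 had an unadjusted p under 0.05, against 2.74% of tiles. A difference of any kind among the 6 groups passed in no member, against 0.00599% of tiles (3 tiles), and 114 members had an unadjusted p under 0.05, or 29.5%, against 5.56%. With the spread judged against tiles at 20 to under 70%, that last share was 14% of members, against 5.38% of those tiles. By limma on logit levels 0 members passed and 3 had an unadjusted p under 0.05, which is 0.775% of members, against 11.8% of tiles. The smallest p for a difference among the groups were at chr7:15208001-15208500 (adjusted p = 0.11), chr14:122197001-122197500, which holds upstream promoter CpGs of Dock9, an activator of Cdc42 (adjusted p = 0.347), chr8:75877001-75877500, chr4:130125501-130126000 (adjusted p = 0.441 each) and chr5:34339001-34339500 (adjusted p = 0.506), by the quasi-binomial test. At chr7:15208001-15208500 the 120 h libraries were at 57.3% and 59.7% and the 9 others between 43.2% and 54.0%. This tile was mixed, and its level is an average over a left part at 96.8% and a right part at 40.1%. Whether reads fell on the parts alike in each library was not tested. At chr14:122197001-122197500 the 40 h and 56 h libraries were at 16.6 to 19.4% and the others at 20.2 to 27.9%. The 40 h and 56 h libraries were also the shallowest, with 259 to 336 observations in this tile against 478 to 1639 in the others. Group and depth cannot be told apart there.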

How the data were processed

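DNA of 11 libraries was profiled by RRBS. The deposited tables list, for each CpG, a pair of read counts (methylated, and all) and a score, the level in thousandths, which matched the counts in every line and was not used. The build is mm9, per the submitters' processing notes. The aligner, the caller and the treatment of duplicates are not given in the sources used here, and per the labels' protocols the DNA was amplified by PCR.

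Counts were summed in 500-bp tiles. All 50105 tiles of chromosomes 1 to 19 and X with 30 or more observations in every library and both kinds of reads were fitted by a quasi-binomial logistic model with 1 mean per group (or a slope on hours). The dispersion was moderated by limma's squeezeVar (limma 3.58.1), rewritten in Python 3.11.15 with NumPy 2.4.6 and SciPy 1.17.1, and not allowed below 1 (10.7 prior degrees of freedom). Deviance F tests were two-sided, with Benjamini-Hochberg adjustment at 0.05. On simulated counts the test recovered large changes, but its unadjusted p was too small in deep tiles when spread grew with depth. The simulated spread was not matched to that of the member tiles. The recovery therefore does not show how large a change in a member the test would find. Fits and patterns were repeated under the alternatives in the closing section.

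The tiles, lists and named items were chosen with earlier results of these data known. Named tiles were the 3 higher and 3 lower with the smallest p at 120 h against 24 h, the 5 with the smallest p for any difference, the 5 uniform and 5 split with the most CpGs, the longest runs and the nearest to each bound. One of the higher tiles is not reported here. The plan named no gene without an mm9 annotation, and the placement of promoters was added after the files were seen. A RefSeq promoter (GRCm38.p6) was placed where 10 or more listed CpGs matched its CpG positions and no listed CpG in the window was out of place. Of 14281 promoters with 10 or more CpGs, 5687 were placed at 1 site, 5686 of them on the chromosome of the table and used. Their order matched the table in 5658 of 5658 neighbouring pairs, and sequences read backwards were placed 10 times. A promoter was assigned to a tile with 5 or more of its listed CpGs. No coordinates were converted.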

Additional observations from a re-analysis of the deposited data

How the results depend on the processing

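No member passed the adjusted threshold in any of the 9 tests under any alternative run. These were no lower limit on the dispersion, limma on logit levels or on equally weighted CpGs, 60 observations per library, CpGs with 5 or more reads in every library, leaving out the deepest 1% of tiles or each library in turn, a replicate block, and, added after seeing the data, a dispersion judged from partly methylated tiles. The replicate numbers share no stated culture, and deviations of same-numbered libraries correlated at -0.0256 to 0.0466 over 10 pairs of groups. With the replicate block 0 members passed in the 4 tests it could be fitted for, and 52 members (13.4%) had an unadjusted p under 0.05 at 120 h against 24 h, against 4.09% of tiles. The rule gave 574 members at 20 CpGs, 248 at 30 CpGs and 231 at 30 to under 60%. Leaving out each library gave 383 to 389. The mean difference of 120 h from continuous estradiol, -1.54 points, was -1.19 with CpGs weighted equally and -0.83 with CpGs of 5 or more reads, and -1.57 to -1.51 without either 120 h library. That of 120 h from 24 h was -0.57 to -0.019 without one library. That of 72 h from 24 h, -0.34 points, was 0.12 without 72 h replicate 1 and -0.80 without replicate 2, so its sign rests on 1 library. Uniform tiles were 30.5%, against 40.3% with bounds of 15 and 85% and 33.3% with 60 reads per CpG. In single libraries they ran from 24.5% (72 h replicate 2), 25.1% (24 h replicate 2) and 25.6% (120 h replicate 1) up to 34.7% (40 h replicate 1). In that last library only 170 tiles could be judged. Depth limits single tiles, with a median of 144 observations per member in the shallowest library.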
